A study of Mus musculus with 46 samples.

Results

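Messenger RNA was compared between 4 hr and 1 hr of lipopolysaccharide (LPS, a bacterial outer membrane component) in Arid1a f/f control macrophages grown from mouse bone marrow. The comparison rests on 4 of the 46 samples of the series: 2 libraries at 4 hr and 2 at 1 hr, taken from the table of the Arid1a experiment by their column names and labels. All cells of these libraries carry the Arid1a f/f allele, and the labels class them as WT. The same table holds 2 Arid1a f/f libraries with no LPS (0 hr), whose levels are given for orientation, and 2 Arid1a knockout libraries at 4 hr and 2 at 1 hr, used for a test of the difference between genotypes. The labels name no Cre driver, mouse age or sex for these cells, and they do not say whether replicates came from separate mice or cultures, so p-values measure only the spread between these libraries. The labels give the molecule as total RNA for the 4 hr libraries and as polyA RNA for the 1 hr libraries, with the same stranded mRNA kit and 50 bp single-end reads for both. Whether the time points were prepared together is not given in the sources used here, so time and any preparation batch cannot be told apart.

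LPS binds the receptor TLR4, which signals from the cell surface through MYD88 and from endosomes through TRIF. The MYD88 branch activates NF-kB and MAP kinases within minutes and starts the immediate early genes, whose induction needs no new protein. The TRIF branch activates IRF3 and induces interferon beta. Secreted interferon beta then acts back on the cell through its receptor and a factor complex that holds STAT2 and IRF9, which binds the interferon-stimulated response element (ISRE) and drives the antiviral genes. Later genes often need new protein synthesis and nucleosome remodelling by SWI/SNF complexes, of which ARID1A is a subunit.

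Promoters are shown for the genes with the largest rises (Ifit2, Saa3 and Edn1) and falls (Zfp36l1, Dusp5 and Egr2) among the listed genes that held a searched motif, so that the letters can be read beside the changes. Il6 and Cxcl10 were added after their values were seen, as textbook LPS targets with several motifs. Each sequence is the 250 bases before a transcription start, 5′ to 3′ on the gene's strand, from RefSeq on GRCm38.p6. For a gene with several windows, the first that held a motif was printed. Capitals mark motif matches on either strand. The motifs were as follows. The ISRE pattern was GAAA on both sides of 2 free bases, which in Saa3 read GAAAGAGAAA. The kappaB pattern, bound by NF-kB, had 2 free bases in its middle and read GGGATTTTCC in Il6 and GGGAAATTCC in Cxcl10. The cAMP response element CRE was TGACGTCA. The CArG box, core of the serum response element, read CCATATTTGG in Dusp5. The E2F pattern was TTCCCGC. The CCAAT box was searched by its own letters, and the TATA box as TATAAA on the forward strand only.
Ifit2, chr19:34550444-34550693, plus strand: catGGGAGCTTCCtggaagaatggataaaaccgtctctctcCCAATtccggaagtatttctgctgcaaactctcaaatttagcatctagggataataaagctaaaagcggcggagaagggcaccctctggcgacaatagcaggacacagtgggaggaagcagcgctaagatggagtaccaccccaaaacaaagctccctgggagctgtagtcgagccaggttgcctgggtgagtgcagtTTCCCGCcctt
Saa3, chr7:46715677-46715926, minus strand: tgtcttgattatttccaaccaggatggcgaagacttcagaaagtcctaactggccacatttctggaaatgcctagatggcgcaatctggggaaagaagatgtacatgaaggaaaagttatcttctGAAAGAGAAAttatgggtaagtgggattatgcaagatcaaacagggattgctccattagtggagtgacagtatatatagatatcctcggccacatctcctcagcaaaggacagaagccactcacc
Edn1, chr13:42301226-42301475, plus strand: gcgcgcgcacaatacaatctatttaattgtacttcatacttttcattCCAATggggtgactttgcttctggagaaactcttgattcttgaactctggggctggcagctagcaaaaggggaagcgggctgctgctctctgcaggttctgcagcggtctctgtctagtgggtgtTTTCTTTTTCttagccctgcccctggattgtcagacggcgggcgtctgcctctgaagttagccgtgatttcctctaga
Zfp36l1, chr12:80113014-80113263, minus strand: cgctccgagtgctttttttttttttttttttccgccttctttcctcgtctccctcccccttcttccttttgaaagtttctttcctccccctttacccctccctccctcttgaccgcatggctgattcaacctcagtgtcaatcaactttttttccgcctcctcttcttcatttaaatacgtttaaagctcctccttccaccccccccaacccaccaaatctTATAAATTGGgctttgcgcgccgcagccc
Dusp5, chr19:53528895-53529144, plus strand: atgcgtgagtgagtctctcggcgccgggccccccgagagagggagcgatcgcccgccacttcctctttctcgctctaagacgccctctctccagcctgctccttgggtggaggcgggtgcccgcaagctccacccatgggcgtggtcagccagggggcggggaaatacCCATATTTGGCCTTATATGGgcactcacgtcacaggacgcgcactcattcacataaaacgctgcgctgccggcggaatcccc
Egr2, chr10:67535249-67535498, plus strand: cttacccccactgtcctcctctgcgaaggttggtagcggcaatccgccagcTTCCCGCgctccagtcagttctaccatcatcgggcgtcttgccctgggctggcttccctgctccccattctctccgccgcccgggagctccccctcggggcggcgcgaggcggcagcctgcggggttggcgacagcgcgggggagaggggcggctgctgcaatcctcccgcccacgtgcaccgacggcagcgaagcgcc
Il6, chr5:30012864-30013113, plus strand: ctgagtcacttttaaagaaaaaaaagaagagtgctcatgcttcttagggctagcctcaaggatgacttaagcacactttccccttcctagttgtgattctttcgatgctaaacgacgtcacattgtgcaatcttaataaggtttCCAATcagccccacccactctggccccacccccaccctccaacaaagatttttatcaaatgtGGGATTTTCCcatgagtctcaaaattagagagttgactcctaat
Cxcl10, chr5:92348890-92349139, minus strand: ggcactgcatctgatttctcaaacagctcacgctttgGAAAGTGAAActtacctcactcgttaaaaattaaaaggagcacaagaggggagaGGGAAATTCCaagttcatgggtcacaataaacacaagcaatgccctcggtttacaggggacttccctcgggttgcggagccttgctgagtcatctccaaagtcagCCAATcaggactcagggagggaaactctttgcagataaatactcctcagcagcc
Cxcl10 held an ISRE at positions -213 to -204 from the start, a kappaB match at -159 to -150 and a CCAAT box at -54 to -50. Il6 held a kappaB match at -44 to -35 and a CCAAT box. Dusp5 held 2 CArG boxes side by side, at -82 to -73 and -72 to -63, and this palindromic pattern was read on both strands. In Zfp36l1 the TATA match and a reverse CCAAT box share 1 base. Of the 32851 RefSeq windows of 300 bases (250 before and 50 after the start), 3.44% held an ISRE, 1.47% kappaB, 1.79% CRE, 1.63% a CArG box, 37.4% CCAAT, 4.6% E2F and 8.32% TATA. A match is a description of letters and not a bound site.

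Between 1 hr and 4 hr the cells exchanged an early wave of transcription factors, phosphatases and a few cytokines for interferon-stimulated genes, guanylate-binding GTPases, late cytokines and chemokines, and inflammatory enzymes. Of 11798 genes tested, 2083 were higher at 4 hr (17.7%) and 3803 were lower (32.2%), by limma on log2(TPM + 1) with an adjusted p under 0.05 on TPM as deposited and on TPM rescaled by median-ratio factors. A log2 change of at least 2 in size was reached by 416 of the higher genes (3.53% of genes tested) and 578 of the lower genes (4.9%). Counts for gene lists below stand beside the 17.7% higher and 32.2% lower among all genes tested. TPM (transcript counts scaled for length and library total) is a share of the library, and its all-gene median fell by 0.48 on the log2 scale, against a median change of -0.0047 after rescaling; log2 changes below are on TPM as deposited, and a gene near -0.48 kept its rank among all genes. TPM alone called 2083 higher (23.7% of its calls) and 6697 lower, and rescaled TPM alone called 3870 higher (50.4%) and 3803 lower, so only calls shared by both are used. Because counting ignored strand, genes whose exons overlap another gene are less certain. Among those named with values are Batf2, Bhlhe40, Cd274, Cd74, Cdc20, Cebpa, Cfb, Csf2, Cxcl10, Cxcl11, Edn1, Fpr2, Gas6, Il27 and Irf3. Others are Irs2, Myd88, Nlrc5, Nop58, Slc7a2, Smarca2, Smarca4, Tap1, Tbxas1, Tlr3, Tnfsf9, Txnip, Usp18 and Zfp36l1. Tgtp2 and Fpr2 also have close paralogs that can share reads. Genes called higher held 275520 and 268470 TPM in total at 4 hr, against 92881 and 91574 TPM at 1 hr. All listed genes summed to 592068 and 592601 TPM at 4 hr, against 564050 and 564569 TPM at 1 hr. The 4 libraries hold 10282399 to 11863069 exonic reads recovered from TPM, so that a count of 3 for a transcript of 2 kb stands at 0.156 to 0.198 TPM.

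**Figure D1:**
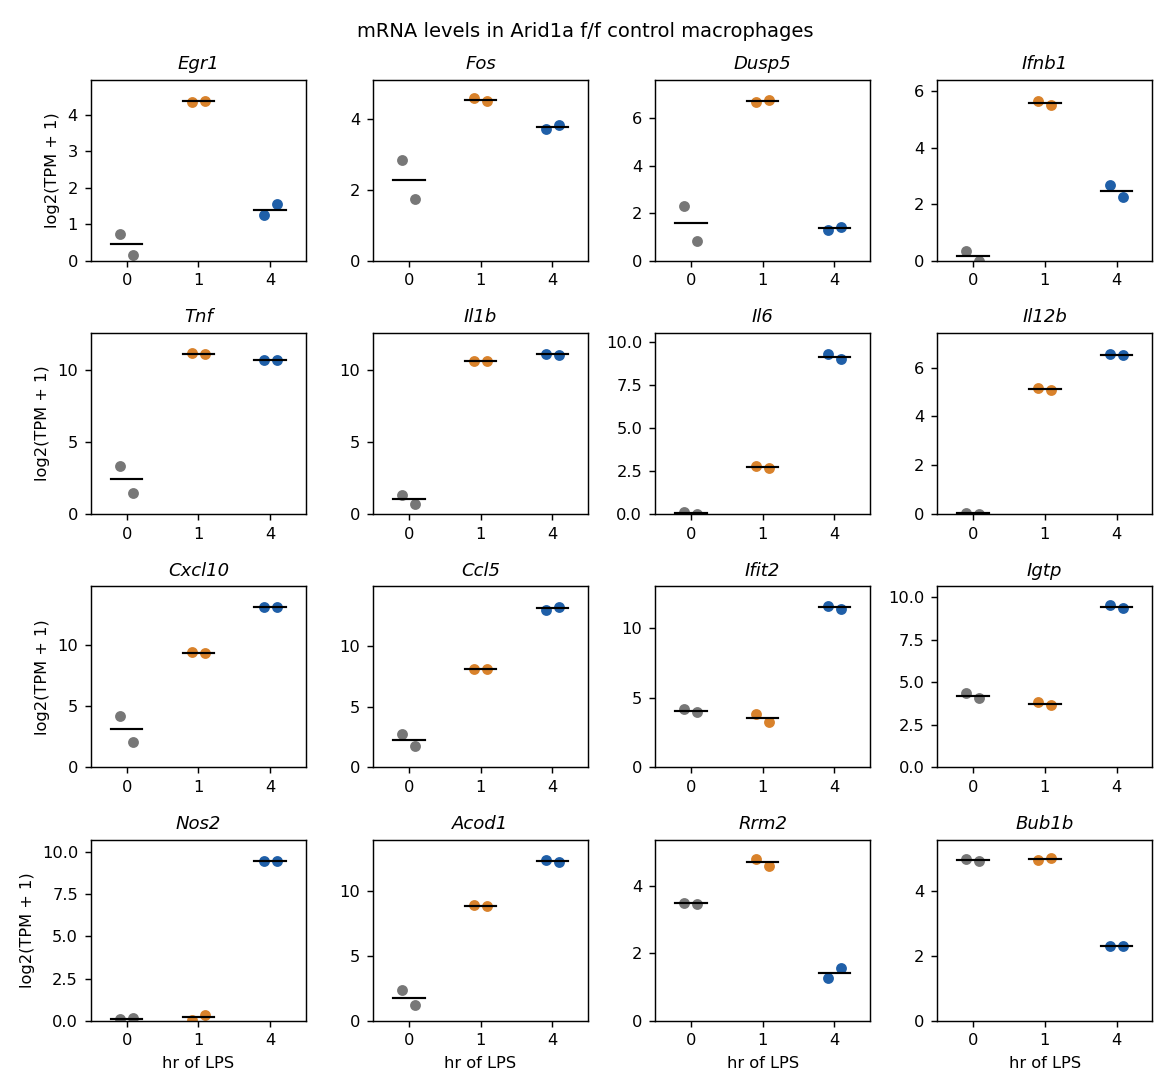
Levels of 16 genes as log2(TPM + 1) in Arid1a f/f control macrophages at 0, 1 and 4 hr of LPS; each point is 1 library and each bar the mean of 2. Egr1, Dusp5 and Ifnb1 peak at 1 hr, Tnf and Il1b are near their 4 hr level by 1 hr, and Il6, Ifit2 and Nos2 sit far higher at 4 hr than at 1 hr.

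Immediate early transcription factors were lower at 4 hr: 16 of 24 tested fell, none rose, and the list median was -1.60. Egr2, a zinc finger factor, had 2.18 and 2.49 TPM at 4 hr, against 109 and 107 TPM at 1 hr (log2 change -5.03 ± 0.13 SE, n = 2 each, adjusted p = 5.8e-10). Egr3 of the same family had 0.069 and 0.095 TPM at 4 hr, near the level of 3 reads, against 27.0 and 31.2 TPM at 1 hr. Egr1 had 1.38 and 1.95 TPM at 4 hr, against 19.5 and 19.9 TPM at 1 hr (-2.97 ± 0.20, adjusted p = 3.4e-07). The groups of all 3 genes were far apart, and their 0 hr libraries read 0.123 to 1.16 TPM. Maff, a small partner of bZIP factors, had 5.21 and 3.07 TPM at 4 hr, against 107 and 114 TPM at 1 hr (-4.47 ± 0.18). The nuclear receptor Nr4a1 had 0.374 and 0.049 TPM at 4 hr, against 17.6 and 18.2 TPM at 1 hr (-3.98 ± 0.16). Its second 4 hr library is under the level of 3 reads, so the size depends on the pseudocount. With limma voom on recovered reads it was -6.19. Ier3, an early survival gene, fell less, with 56.8 and 53.6 TPM at 4 hr, against 156 and 162 TPM at 1 hr (-1.51 ± 0.13, adjusted p = 2.8e-06). Fos, a subunit of AP-1, was not called: it had 12 and 13.3 TPM at 4 hr, against 23 and 21.6 TPM at 1 hr (-0.77 ± 0.31, adjusted p = 0.054), although the groups did not overlap. Groups that do not overlap were found for 89.1% of all genes tested, so separation alone carries little weight with 2 libraries a group.

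The dual specificity phosphatases, which switch off MAP kinases, were also lower: 8 of 11 fell, none rose, and the median was -1.91. Dusp5, which acts on ERK, had 1.46 and 1.72 TPM at 4 hr, against 103 and 108 TPM at 1 hr (-5.36 ± 0.43, adjusted p = 2.7e-05); its promoter carries the paired CArG boxes printed above. Dusp4 had 4.41 and 5.74 TPM at 4 hr, against 112 and 123 TPM at 1 hr (-4.29 ± 0.68, adjusted p = 0.0015). Dusp1, which acts on p38 and JNK, kept a high level, with 188 and 192 TPM at 4 hr, against 714 and 715 TPM at 1 hr and 17.0 and 7.04 TPM at 0 hr (-1.91 ± 0.33, adjusted p = 0.0018). Dusp5 and Dusp1 share exon positions with other annotated genes, and reads were counted on both strands, so a part of their values may come from the partner. Other falls past 5 on the log2 scale came from genes of several kinds. Plau, the urokinase plasminogen activator, had 3.28 and 4.32 TPM at 4 hr, against 319 and 325 TPM at 1 hr (-6.08 ± 0.32, adjusted p = 2.9e-06). Zfp36l1, an mRNA decay factor, had 1.15 and 1.69 TPM at 4 hr, against 126 and 134 TPM at 1 hr (-5.77 ± 0.15). Errfi1, an inhibitor of EGF receptor signalling, had 5.94 and 5.12 TPM at 4 hr, against 244 and 250 TPM at 1 hr, and Hilpda, a lipid droplet protein, 4.60 and 3.66 TPM at 4 hr, against 194 and 194 TPM at 1 hr. Plau, Errfi1, Hilpda and Dusp5 had 0 hr levels of at most 21.5 TPM and so formed a peak at 1 hr. Zfp36l1 had 86.5 and 90.8 TPM at 0 hr and did not.

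A second kind of fall concerned genes that were high in cells without LPS. Cxcr4, the receptor for CXCL12, had 0.950 and 0.664 TPM at 4 hr, against 43.8 and 44.4 TPM at 1 hr, and 293 and 252 TPM at 0 hr. Sesn1, a p53 and FOXO target, had 2.23 and 2.26 TPM at 4 hr, against 103 and 106 TPM at 1 hr, and 290 and 326 TPM at 0 hr. Slc40a1, the iron exporter ferroportin, had 9.90 and 9.17 TPM at 4 hr, against 254 and 259 TPM at 1 hr, and 637 and 727 TPM at 0 hr. S1pr1, a sphingosine 1-phosphate receptor, had 1.31 and 1.15 TPM at 4 hr, against 35.3 and 36.0 TPM at 1 hr, and 54.3 and 52.9 TPM at 0 hr. The 4 hr and 1 hr groups of these genes were far apart, with log2 changes of -4.65 ± 0.13 for Cxcr4, -5.02 ± 0.10 for Sesn1, -4.61 ± 0.09 for Slc40a1 and -4.04 ± 0.10 for S1pr1, and adjusted p of at most 7.7e-10. FOXO and arrestin domain genes, the list that holds Sesn1, had 10 falls and 3 rises among 16 tested. Among all genes tested 32.2% were lower and 17.7% higher, the latter near the share of rises in this list. Irs2, an insulin receptor substrate of this list, was not high without LPS, with 1.68 and 1.26 TPM at 0 hr. It had 0.485 and 0.265 TPM at 4 hr, against 13.9 and 15.1 TPM at 1 hr, and so peaked at 1 hr. Txnip, which binds thioredoxin and limits glucose uptake, rose to 79.2 and 72.5 TPM at 4 hr, against 41.6 and 42.5 TPM at 1 hr, both far under its 879 and 934 TPM at 0 hr.

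Cytokines changed in both directions. Of 23 tested, 13 rose and 6 fell, and the list median was 0.95. Among all genes tested 17.7% were higher and 32.2% lower, so the share of falls in this list was under that of all genes. Il6, an acute phase cytokine, had 614 and 505 TPM at 4 hr, against 5.96 and 5.34 TPM at 1 hr (6.39 ± 0.11, adjusted p = 8.7e-11). Edn1, the vasoactive peptide endothelin 1, had 174 and 153 TPM at 4 hr, against 0.860 and 0.734 TPM at 1 hr (6.51 ± 0.12). Tnfsf10, which encodes the death ligand TRAIL and is an interferon target, had 121 and 101 TPM at 4 hr, against 0.371 and 0.338 TPM at 1 hr (6.37 ± 0.11). Il27 had 492 and 506 TPM at 4 hr, against 29.1 and 26.0 TPM at 1 hr (4.13 ± 0.14). Il12b, the shared p40 subunit of IL-12 and IL-23, was already at 34.9 and 32.4 TPM at 1 hr and had 91.7 and 90.6 TPM at 4 hr (1.41 ± 0.11, adjusted p = 1e-06). The groups of these 5 genes did not overlap. Ifnb1, the interferon that starts the autocrine loop, went the other way, with 5.50 and 3.75 TPM at 4 hr, against 49.4 and 45.0 TPM at 1 hr (-3.12 ± 0.19, adjusted p = 2.1e-07). Csf2, which encodes GM-CSF, had 0.514 and 0.350 TPM at 4 hr, against 24.9 and 24.2 TPM at 1 hr (-4.16 ± 0.17). Tnfsf9, the 4-1BB ligand, had 126 and 121 TPM at 4 hr, against 1594 and 1521 TPM at 1 hr (-3.64 ± 0.18). Lif, a cytokine of the IL-6 family, is listed at 0 in both 4 hr libraries and had 5.46 and 5.57 TPM at 1 hr. These 4 cytokines that fell had at most 2.96 TPM at 0 hr and so peaked at 1 hr among the 3 times.

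Tnf and Il1b, the pyrogenic cytokines, held high levels at both times. Tnf had 1602 and 1606 TPM at 4 hr, against 2234 and 2122 TPM at 1 hr, and was not called (-0.44 ± 0.55, adjusted p = 0.50); on rescaled TPM the value was 0.12. Il1b had 2199 and 2097 TPM at 4 hr, against 1582 and 1555 TPM at 1 hr, and was called higher (0.45 ± 0.16, adjusted p = 0.029). The Il1b call was lost when any of the 4 libraries was left out, with changes of 0.42 to 0.49 and adjusted p of 0.0737 to 0.116, and when either 1 hr knockout library was left out, at adjusted p of 0.0520 and 0.0524. Its exons share positions with the antisense gene Il1bos, whose reads cannot be told apart here. Il10, an inhibitory cytokine, had 35.2 and 27.1 TPM at 4 hr, against 48.4 and 55 TPM at 1 hr, and passed on TPM (-0.72 ± 0.26, adjusted p = 0.032) but not on rescaled TPM (adjusted p = 0.55). The shared spread of these genes includes the 0 hr libraries, which disagreed: Tnf had 9.28 and 1.81 TPM there, and Il10 2.72 and 0.971 TPM.

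Chemokines rose as a group but not in unison. Of 12 CC chemokines, 8 rose and none fell (median 1.33, lowest -0.99). On TPM alone 1 of them fell, and with 1 library left out 0 to 1 fell. Ccl2 had a mean of 3260 TPM at 4 hr, against 6471 TPM at 1 hr. Of 8 CXC chemokines tested, 5 rose and 2 fell (median 0.97; 1 fall without control 4 hr replicate 1 or control 1 hr replicate 2). Ccl5 (RANTES) had 8355 and 9936 TPM at 4 hr, against 281 and 284 TPM at 1 hr (5.01 ± 0.33, adjusted p = 1.3e-05). Ccl8, a monocyte attractant, had 201 and 173 TPM at 4 hr, against 2.49 and 3.09 TPM at 1 hr (5.63 ± 0.35). The CXCR3 ligands, which attract T cells, were all higher. Cxcl10 had 8736 and 9087 TPM at 4 hr, against 692 and 650 TPM at 1 hr (3.73 ± 0.62, adjusted p = 0.0019); its promoter holds the ISRE and kappaB letters printed above. Cxcl9 had 110 and 94.1 TPM at 4 hr, against 0.158 and 0.252 TPM at 1 hr (6.42 ± 0.13). Its 1 hr values lie near the level of 3 reads, and limma voom on recovered reads gave 9.41. Cxcl11 had 649 and 547 TPM at 4 hr, against 4.46 and 5.08 TPM at 1 hr (6.69 ± 0.15). Cxcl10 was thus already abundant at 1 hr, and Cxcl9 was not. Cxcl1, a neutrophil attractant, was lower, with 55.5 and 52.5 TPM at 4 hr, against 331 and 320 TPM at 1 hr (-2.57 ± 0.26, adjusted p = 5.9e-05). Cxcl2 had 572 and 568 TPM at 4 hr, against 1955 and 1914 TPM at 1 hr, and was not called (-1.76 ± 1.14, adjusted p = 0.21). The 0 hr libraries of Cxcl2 read 26.1 and 0.820 TPM and widened its error; with only the 4 hr and 1 hr control groups in the fit the adjusted p was 7.22e-07.

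Antiviral effectors and interferon-inducible GTPases rose without exception among the genes tested. All 35 antiviral effectors tested were higher at 4 hr, with a median of 3.58 and a range of 1.43 to 8.21, beside 17.7% higher and a median of -0.48 over all genes. Mx1, a dynamin-like GTPase that blocks viruses, had 1220 and 1088 TPM at 4 hr, against 3.05 and 2.74 TPM at 1 hr (8.21 ± 0.10, adjusted p = 1.1e-11). Ifit2, which encodes an RNA-binding protein, had 3168 and 2630 TPM at 4 hr, against 13.1 and 8.45 TPM at 1 hr (7.97 ± 0.18). Cmpk2, a mitochondrial nucleotide kinase, had 3345 and 3139 TPM at 4 hr, against 15.6 and 11.9 TPM at 1 hr (7.79 ± 0.15). Usp18, which removes ISG15 and dampens interferon signalling, had 735 and 697 TPM at 4 hr, against 7.10 and 6.23 TPM at 1 hr (6.55 ± 0.14). At 0 hr these 4 genes read 3.63 to 17.2 TPM, and the 1 hr levels of Mx1 and Ifit2 lay under their 0 hr levels, while those of Usp18 overlapped them. The interferon-inducible GTPases of the GBP and IRG families, which attack vacuoles of pathogens, rose in 16 of 16 cases with a median of 4.75. Iigp1 had 406 and 306 TPM at 4 hr, against 0.566 and 0.378 TPM at 1 hr (7.91 ± 0.19), and Tgtp2 had 85.7 and 72.8 TPM at 4 hr, against 0.530 and 0.297 TPM at 1 hr (5.83 ± 0.13). Igtp had 749 and 648 TPM at 4 hr, against 13.2 and 11.7 TPM at 1 hr (5.70 ± 0.12), with exons that overlap its relative Irgm2.

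Transcription factors of the interferon pathway rose with their targets. Of 15 IRF and STAT genes, 10 rose and 3 fell (median 1.17). Irf7, which amplifies interferon production, had 1031 and 1072 TPM at 4 hr, against 28.9 and 23.2 TPM at 1 hr (5.29 ± 0.11, adjusted p = 1.3e-10). Stat2 had 302 and 286 TPM at 4 hr, against 11.6 and 10.7 TPM at 1 hr (4.60 ± 0.09). Irf7 has exons that overlap another annotated gene. Irf3, the factor that TLR4 activates without new synthesis, fell to 16.4 and 17.1 TPM at 4 hr, against 33.0 and 33.0 TPM at 1 hr (-0.93 ± 0.10). Irf4 had 0.250 and 0.278 TPM at 4 hr, against 6.49 and 6.48 TPM at 1 hr (-2.57 ± 0.12).

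**Figure D2:**
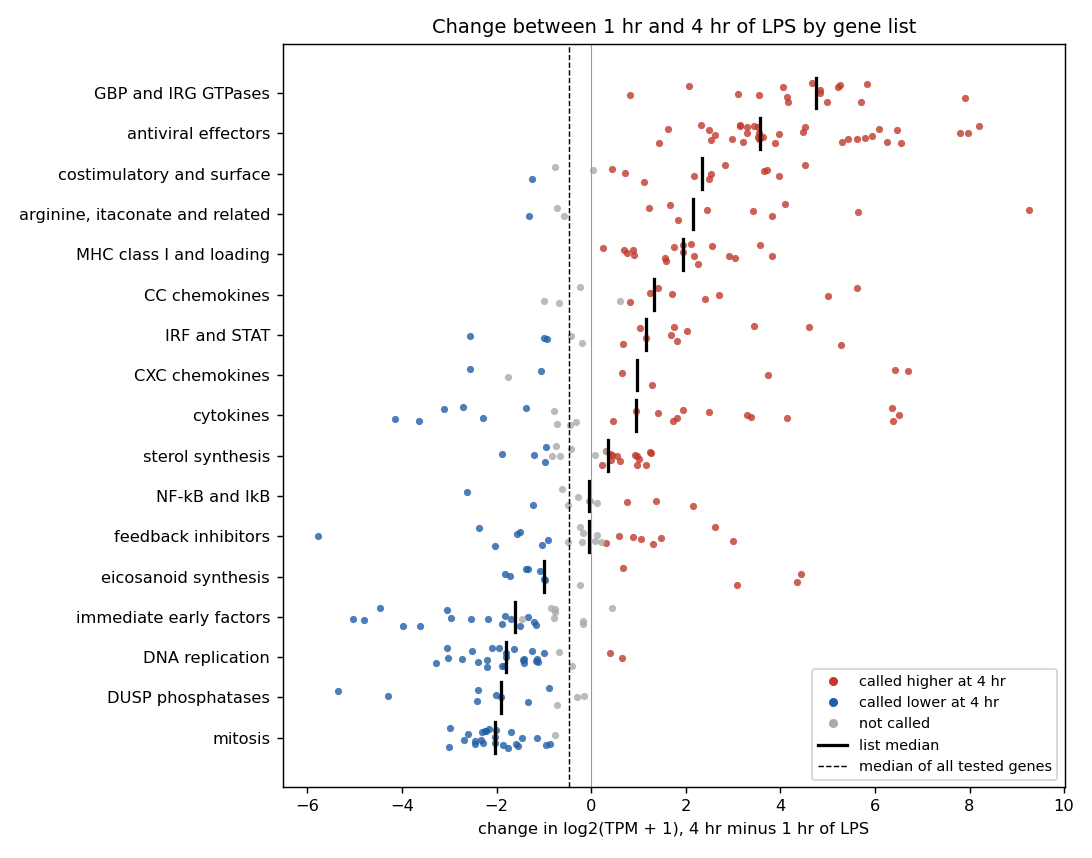
Change in log2(TPM + 1), 4 hr minus 1 hr of LPS, for members of 17 gene lists; each point is 1 gene, coloured by its call, with the list median as a bar and the median of all genes (-0.48) as a dashed line. GBP and IRG GTPases (median 4.75) and antiviral effectors (3.58) lie at the high end, mitosis (-2.04) and DUSP phosphatases (-1.91) at the low end.

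Antigen presentation shifted by class. All 18 genes of MHC class I and peptide loading were higher (median 1.94, range 0.26 to 3.83). Nlrc5, the class I transactivator, had 128 and 125 TPM at 4 hr, against 8.38 and 7.61 TPM at 1 hr (3.83 ± 0.14), and Tap1, the peptide transporter, had 375 and 396 TPM at 4 hr, against 33.1 and 30.0 TPM at 1 hr (3.57 ± 0.08). MHC class II moved less, with 3 of 8 higher, 1 lower and a median of 0.31; Cd74, the invariant chain, had 65.3 and 66.1 TPM at 4 hr, against 31.0 and 32.5 TPM at 1 hr (1.03 ± 0.17). Costimulatory and surface genes rose in 11 of 14 cases and fell in 1 (median 2.34). Cd69, an activation marker, had 692 and 659 TPM at 4 hr, against 27.4 and 29.9 TPM at 1 hr (4.51 ± 0.12). Cd274, which encodes PD-L1, had 347 and 333 TPM at 4 hr, against 21.0 and 20.8 TPM at 1 hr (3.96 ± 0.12). Cd83 was the member that fell, to 443 and 427 TPM at 4 hr, against 1024 and 1052 TPM at 1 hr (-1.25 ± 0.11).

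Enzymes of the inflammatory macrophage rose late. Of 12 tested genes of arginine, itaconate and related metabolism, 9 rose and 1 fell (median 2.14). Nos2, the inducible nitric oxide synthase, had 704 and 700 TPM at 4 hr, against 0.0300 and 0.275 TPM at 1 hr, where 1 library is under the level of 3 reads. Its fitted change of 9.26 ± 0.11 therefore depends on the pseudocount. Acod1, which makes itaconate, was induced sooner, with 5132 and 4755 TPM at 4 hr, against 480 and 439 TPM at 1 hr (3.42 ± 0.33, adjusted p = 1e-04). Hdc, which makes histamine, had 61.8 and 56.0 TPM at 4 hr, against 0.144 and 0.262 TPM at 1 hr (5.64 ± 0.12). Its 1 hr values lie near the level of 3 reads, and limma voom on recovered reads gave 8.62. Slc7a2, the cationic amino acid transporter that feeds nitric oxide synthesis, had 30.3 and 29.2 TPM at 4 hr, against 1.23 and 1.10 TPM at 1 hr (3.83 ± 0.13). Eicosanoid genes changed in both directions: 4 of 12 rose and 7 fell. Among prostaglandin E2 enzymes, Ptgs2 (COX-2) rose to 709 and 613 TPM at 4 hr, against 31.9 and 31.0 TPM at 1 hr (4.35 ± 0.17). Ptges had 83.3 and 77.7 TPM at 4 hr, against 2.77 and 2.78 TPM at 1 hr (4.43 ± 0.12). Ptgs1 (COX-1) fell, with 2.68 and 2.94 TPM at 4 hr, against 8.51 and 8.74 TPM at 1 hr (-1.34 ± 0.15). Its exons overlap another annotated gene. Pla2g4a, which frees arachidonic acid, had 78.1 and 68.3 TPM at 4 hr, against 7.72 and 7.84 TPM at 1 hr (3.08 ± 0.10). Among the other members that fell, Hpgds, which makes prostaglandin D2, had 32.3 and 30.0 TPM at 4 hr, against 115 and 111 TPM at 1 hr (-1.82 ± 0.08). Tbxas1, the thromboxane synthase, had 32.2 and 28.5 TPM at 4 hr, against 79.7 and 80.4 TPM at 1 hr (-1.37 ± 0.09).

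Acute phase and iron genes rose in 7 and fell in 4 of 14 cases, a share of falls near the 32.2% of all genes tested. Saa3, serum amyloid A of macrophages, had 7078 and 6356 TPM at 4 hr, against 33.4 and 24.2 TPM at 1 hr (7.83 ± 0.19, adjusted p = 4.2e-09). Lcn2, which binds bacterial iron carriers, had 147 and 148 TPM at 4 hr, against 1.49 and 2.10 TPM at 1 hr (5.74 ± 0.21), and Cfb, complement factor B, had 152 and 145 TPM at 4 hr, against 1.13 and 0.536 TPM at 1 hr (6.37 ± 0.18). Tfrc, the transferrin receptor, fell like ferroportin above, with 19 and 18 TPM at 4 hr, against 54.8 and 54.6 TPM at 1 hr (-1.52 ± 0.11). Hmox1, which frees iron from haem, had 137 and 132 TPM at 4 hr, against 398 and 366 TPM at 1 hr (-1.50 ± 0.08). Cp, which encodes ceruloplasmin, rose instead, with 112 and 93.6 TPM at 4 hr, against 0.592 and 0.809 TPM at 1 hr (5.93 ± 0.16). Its exons overlap Hps3. Matrix proteases and their inhibitors rose in 7 and fell in 6 of 16 cases, a share of falls near the 32.2% of all genes tested. Mmp14, a membrane-bound protease, had 75.6 and 75.9 TPM at 4 hr, against 3.63 and 3.52 TPM at 1 hr (4.07 ± 0.11). Plau fell as given above, and its receptor Plaur had 55.3 and 50.5 TPM at 4 hr, against 290 and 281 TPM at 1 hr (-2.41 ± 0.14). The activator and its receptor were thus both lower at 4 hr.

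Sensors and signalling genes showed mixed moves. Of 33 TLR and TLR4 signalling genes, 17 rose and 5 fell (median 0.48; 3 falls without control 4 hr replicate 1 or control 1 hr replicate 2). Tlr3, the endosomal receptor for double-stranded RNA, had 98.1 and 83.6 TPM at 4 hr, against 5.34 and 4.94 TPM at 1 hr (3.90 ± 0.12), and the adaptor Myd88 had 283 and 282 TPM at 4 hr, against 71.2 and 68.1 TPM at 1 hr (2.01 ± 0.08). Tlr13, a receptor for bacterial ribosomal RNA, fell to 32.2 and 26.5 TPM at 4 hr, against 149 and 147 TPM at 1 hr (-2.30 ± 0.12). Of 11 NF-kB subunits and IkB proteins, 3 rose and 2 fell, a share of falls under the 32.2% of all genes tested. Nfkb1 had 273 and 276 TPM at 4 hr, against 61.7 and 60.8 TPM at 1 hr (2.15 ± 0.09), and Nfkbid had 11.4 and 11.9 TPM at 4 hr, against 78.1 and 76.9 TPM at 1 hr (-2.63 ± 0.09). Nfkbia, the main IkB, had 993 and 1023 TPM at 4 hr, against 1556 and 1544 TPM at 1 hr, and passed only on TPM (-0.62 ± 0.20, adjusted p = 0.020; 0.81 on rescaled TPM). Tnfaip3, which encodes the deubiquitinase A20, had 456 and 438 TPM at 4 hr, against 516 and 496 TPM at 1 hr (-0.18 ± 0.23, adjusted p = 0.51), and its sign turned to 0.38 on rescaled TPM. The feedback list rose in 8 and fell in 7 of 22 cases, a share of falls near the 32.2% of all genes tested. Socs1, an inhibitor of JAK kinases, had 30.1 and 47.6 TPM at 4 hr, against 2.73 and 5.32 TPM at 1 hr (3.0 ± 0.36). Il1rn, the IL-1 receptor antagonist, had 713 and 625 TPM at 4 hr, against 111 and 105 TPM at 1 hr (2.62 ± 0.50, adjusted p = 0.0038). In the inflammasome list 7 of 14 rose and 2 fell; Casp1 had 622 and 534 TPM at 4 hr, against 96.8 and 95.2 TPM at 1 hr (2.57 ± 0.09), and the sensor Nlrp1b had 1.21 and 1.42 TPM at 4 hr, against 18.9 and 18.8 TPM at 1 hr (-3.10 ± 0.13).

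Surface receptors changed in both directions. G protein-coupled receptors rose in 10 and fell in 10 of 25 cases, beside 17.7% higher and 32.2% lower among all genes tested. The formyl peptide receptors rose: Fpr2 had 85.6 and 79.0 TPM at 4 hr, against 1.15 and 1.29 TPM at 1 hr (5.23 ± 0.19), and Fpr1 had 30.7 and 29.5 TPM at 4 hr, against 0.434 and 0.316 TPM at 1 hr (4.5 ± 0.15). The complement receptor C5ar1 had 164 and 193 TPM at 4 hr, against 590 and 606 TPM at 1 hr (-1.74 ± 0.11). Scavenger, lectin and Fc receptors rose in 6 and fell in 6 of 18 cases, a share of falls near the 32.2% of all genes tested. Fcgr1, the high-affinity IgG receptor, had 516 and 501 TPM at 4 hr, against 43.2 and 39.7 TPM at 1 hr (3.59 ± 0.07), and Cd163, the haemoglobin scavenger, had 1.32 and 1.17 TPM at 4 hr, against 13.6 and 13.6 TPM at 1 hr (-2.70 ± 0.19). Among efferocytosis genes, 2 of 13 rose and 4 fell, shares near the 17.7% and 32.2% of all genes tested; 1 rose without control 4 hr replicate 1 or 2. The receptor Axl had 13.4 and 15.4 TPM at 4 hr, against 1.94 and 1.22 TPM at 1 hr (2.58 ± 0.15), and its ligand Gas6 had 208 and 232 TPM at 4 hr, against 600 and 596 TPM at 1 hr (-1.44 ± 0.08). Receptor and ligand of this pair therefore moved apart.

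Metabolic genes of the same list changed in both directions. Glycolysis and HIF1 genes rose in 10 and fell in 4 of 23 cases; 2 fell without control 4 hr replicate 1 or either control 1 hr library. Pfkfb3, the activator of phosphofructokinase, had 226 and 210 TPM at 4 hr, against 19 and 20.5 TPM at 1 hr (3.40 ± 0.10), and Vegfa had 3.52 and 3.96 TPM at 4 hr, against 16.8 and 18.1 TPM at 1 hr (-1.96 ± 0.16). Sterol synthesis genes rose in 14 and fell in 4 of 24 cases (median 0.36); 9 rose without control 4 hr replicate 1 or control 1 hr replicate 2, and 2 fell without control 4 hr replicate 2 or control 1 hr replicate 2. Insig1, which holds the SREBP factors in the endoplasmic reticulum, had 38.2 and 45.9 TPM at 4 hr, against 98.7 and 97.4 TPM at 1 hr (-1.21 ± 0.11). Of 14 LXR targets, which include cholesterol efflux genes, 1 rose and 5 fell, a share of falls near the 32.2% of all genes tested. Abca1, the cholesterol exporter, had 22.3 and 21.4 TPM at 4 hr, against 86.0 and 90.4 TPM at 1 hr (-1.96 ± 0.29), and Arl4c had 1.06 and 1.18 TPM at 4 hr, against 57.2 and 61.4 TPM at 1 hr (-4.83 ± 0.10). NRF2 targets fell in 7 and rose in 1 of 14 cases. Among 20 aminoacyl-tRNA synthetases 7 rose and 5 fell, a share of falls under the 32.2% of all genes tested. Wars, which charges tryptophan and is an interferon target, had 125 and 136 TPM at 4 hr, against 24.1 and 23.5 TPM at 1 hr (2.40 ± 0.09). Oxidative phosphorylation genes lay near the all-gene median, with a median of -0.46, no rise and 2 falls among 73. Cytosolic ribosomal protein genes likewise had a median of -0.51, no rise and 6 falls among 74. These falls depended on the scaling and on single libraries: on TPM alone 62 and 43 fell, and with 1 library left out 0 to 6 and 1 to 8 fell, the fewest of both lists without control 1 hr replicate 2 and the most without either knockout 1 hr library.

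Cell division genes were lower at 4 hr. Of 25 mitosis genes 24 fell (median -2.04), and of 27 DNA replication genes 23 fell and 2 rose (median -1.81), beside 32.2% lower among all genes. Rrm2, the ribonucleotide reductase subunit, had 1.40 and 1.93 TPM at 4 hr, against 26.8 and 23.2 TPM at 1 hr, and 10.2 and 10.1 TPM at 0 hr (-3.29 ± 0.13). Uhrf1, which maintains DNA methylation, had 0.780 and 0.815 TPM at 4 hr, against 13.6 and 14.2 TPM at 1 hr (-3.05 ± 0.14). Bub1b, a spindle checkpoint kinase, had 3.98 and 4.01 TPM at 4 hr, against 30.0 and 32.1 TPM at 1 hr (-2.68 ± 0.11), and Cdc20, its anaphase target, had 4.09 and 6.08 TPM at 4 hr, against 47.1 and 45.8 TPM at 1 hr (-2.98 ± 0.15). Mcm10, an origin factor, rose instead, to 16.3 and 16.4 TPM at 4 hr, against 9.96 and 10 TPM at 1 hr (0.66 ± 0.09). In these bulk libraries fewer cycling cells and less RNA per cell cannot be told apart. Of the 22 promoter windows found for 20 of the 25 mitosis genes, 20 (90.9%) held a CCAAT box, beside 37.4% of all windows. For the other sets of genes fewer than 80% had a window, so no share of motifs is given for them.

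Regulators of macrophage identity changed in both directions. Of 20 macrophage regulators 8 rose and 7 fell, a share of falls near the 32.2% of all genes tested. Batf2, an interferon-induced bZIP factor, had 133 and 138 TPM at 4 hr, against 3.23 and 3.55 TPM at 1 hr (4.96 ± 0.15), and Bhlhe40, a repressor of Il10, had 0.467 and 0.386 TPM at 4 hr, against 46.8 and 47.1 TPM at 1 hr (-5.07 ± 0.38). Cebpa, a factor of myeloid differentiation, had 0.501 and 1.09 TPM at 4 hr, against 16.5 and 17.2 TPM at 1 hr, and 55.8 and 53.8 TPM at 0 hr (-3.33 ± 0.15). Of 24 SWI/SNF subunit genes 5 rose and 5 fell, shares near or under the 17.7% and 32.2% of all genes tested; 2 rose without control 4 hr replicate 2 or control 1 hr replicate 1. Arid1a itself had 35.2 and 41.9 TPM at 4 hr, against 18.3 and 17.3 TPM at 1 hr (1.07 ± 0.21, adjusted p = 0.0015), with 37.2 and 36.9 TPM at 0 hr. Smarca4, which encodes the ATPase BRG1, had 44.1 and 46.7 TPM at 4 hr, against 29.0 and 28.5 TPM at 1 hr (0.64 ± 0.10), and Smarca2, the alternative ATPase, had 2.77 and 3.13 TPM at 4 hr, against 14.6 and 14.8 TPM at 1 hr (-1.99 ± 0.12). All 10 macrophage markers were at or above 1 TPM in each library, with sums of 16448 and 15845 TPM at 4 hr, against 23477 and 23306 TPM at 1 hr. Lyz2 alone made up 10057 and 9425.5 TPM at 4 hr, against 15882 and 15770 TPM at 1 hr. By call, 3 of the 10 were higher (2 to 3 with 1 library left out) and 1 was lower. Granulocyte markers summed to 26.5 and 16.7 TPM at 4 hr, against 23.9 and 24.7 TPM at 1 hr, lymphocyte markers to at most 0.120 TPM and erythroid or mast cell markers to at most 0.361 TPM. Stromal or endothelial markers summed to 33.0 and 33.1 TPM at 4 hr, against 2.86 and 2.73 TPM at 1 hr; Kdr alone made up 29.2 and 29.4 TPM of it at 4 hr, against 2.47 and 2.18 TPM at 1 hr, and 2 and 3 of the 8 markers are listed at 0 at 4 hr. The part of other cell types in these results was not tested.

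Sets defined in other libraries of the series gave a view of the same switch that these 4 libraries did not choose. Sets were made of genes that lipid A lifted by 1 or more in log2(TPM + 1); lipid A is the part of LPS that binds TLR4, and the values came from control cells of 2 further experiments, WT cells at 60 min and Pbrm1 f/f cells at 4 hr. Of the 182 tested genes raised at 60 min only, 122 (67.0%) were lower at 4 hr than at 1 hr of LPS and 5 (2.75%) higher, with a median of -1.37. Of the 206 raised at both times, 101 (49.0%) were higher and 30 (14.6%) lower. Of the 826 raised at 4 hr only, 753 (91.2%) were higher and 4 (0.484%) lower, with a median of 1.59. These shares stand beside 17.7% higher and 32.2% lower among all genes tested.

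**Figure D3:**
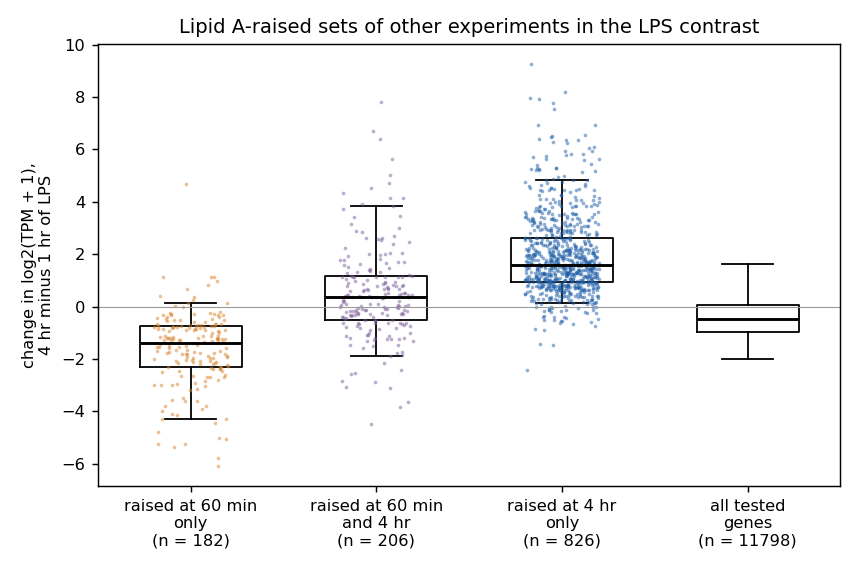
Change in log2(TPM + 1), 4 hr minus 1 hr of LPS, for genes raised by lipid A in libraries of other experiments at 60 min only, at both times or at 4 hr only, and for all tested genes; points are genes, boxes the quartiles and whiskers the 5th to 95th percentile. The medians are -1.37, 0.35, 1.59 and -0.48 from left to right.

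Lipid A libraries of a further experiment at the same times, 1 usable control library at 4 hr and 2 at 1 hr, gave values for 10587 of the genes, with no test because 1 library stands alone. Across these genes, which are not independent replicates, the lipid A and LPS changes had r = 0.81 and rho = 0.78. Of the genes called higher with LPS, 1865 of 1962 (95.1%) lay above the all-gene median with lipid A, and of those called lower, 2964 of 3367 (88.0%) lay below it. Some cytokines differed in value. Il1b had 1120 TPM at 4 hr of lipid A, against 8431 and 8307 TPM at 1 hr, a log2 change of -2.90 where LPS gave 0.45. Il12b had 114 TPM at 4 hr of lipid A, against 197 and 178 TPM at 1 hr, a change of -0.71 where LPS gave 1.41. Il6 was already at 63.2 and 64.5 TPM at 1 hr of lipid A and had 410 TPM at 4 hr. Antiviral genes also differed in the size of the change. Mx1 had 95.1 and 72.9 TPM at 1 hr of lipid A and a change of 4.58, where LPS gave 8.21. Ifit2 had 355 and 381 TPM at 1 hr of lipid A and a change of 4.47, where LPS gave 7.97. At 1 hr, levels of Il1b, Il12b, Il6, Ifnb1, Egr1, Mx1 and Ifit2 were higher in the lipid A libraries than in the LPS libraries. The stimulus, the mouse allele and the experiment differ together, the tables were normalized separately, and these sources cannot be told apart.

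**Figure D4:**
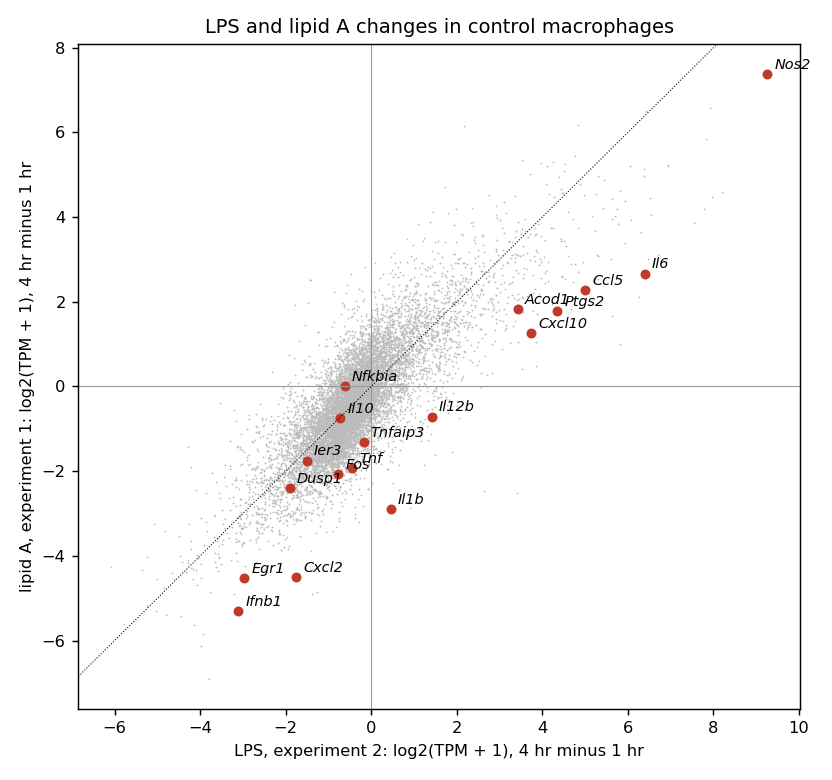
Change in log2(TPM + 1), 4 hr minus 1 hr, with LPS (horizontal, 2 libraries a time) and with lipid A (vertical, 1 library at 4 hr and 2 at 1 hr) in control macrophages; grey points are genes, red points the 18 chosen LPS response genes, and the dotted line marks equal change. Nos2 and Il6 lie high on both axes, Ifnb1 and Egr1 low on both, and Il1b and Il12b fall below 0 on the lipid A axis only.

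The same interval in Arid1a knockout macrophages differed for a minority of genes. The change was more positive in knockout than in control cells for 917 genes (7.77% of those tested) and more negative for 956 (8.1%), by the interaction term of the limma fit. The change of antiviral effectors was more negative in knockout cells for 21 of 35 (14 to 23 with 1 library left out) and more positive for 1, and sterol synthesis and ribosome biogenesis genes changed more negatively for 15 of 24 and 19 of 36, with none more positive. The levels behind these differences varied among 4 examples chosen after their values were seen. Mx1 had 1292 and 1192 TPM at 4 hr in knockout cells, against 1220 and 1088 TPM in control cells, and 6.47 and 7.62 TPM at 1 hr in knockout cells, against 3.05 and 2.74 TPM in control cells. Usp18 had 893 and 849 TPM at 4 hr in knockout cells, against 735 and 697 TPM in control cells, and 44.0 and 32.2 TPM at 1 hr in knockout cells, against 7.10 and 6.23 TPM in control cells. Knockout levels of both antiviral genes were thus higher at 1 hr and no lower at 4 hr. Nop58, a ribosome biogenesis factor, had 12.7 and 14.7 TPM at 4 hr in knockout cells, against 8.88 and 8.93 TPM in control cells, and 58.1 and 55.2 TPM at 1 hr in knockout cells, against 18.6 and 18.2 TPM in control cells. Sc5d, a sterol desaturase, differed at 4 hr instead, with 13 and 11.7 TPM in knockout cells, against 51.8 and 45.2 TPM in control cells, beside 17.2 and 19.1 TPM at 1 hr in knockout cells, against 20.4 and 18.5 TPM in control cells. Mitosis genes were more positive for 10 of 25 (4 to 14 with 1 library left out). Ifnb1 had 44.4 and 48.1 TPM at 4 hr in knockout cells, against 5.50 and 3.75 TPM in control cells, and 46.9 and 34.1 TPM at 1 hr in knockout cells, against 49.4 and 45.0 TPM in control cells. Knockout cells thus held at 4 hr a level within the range of the 1 hr libraries, with a difference of 3.32 ± 0.27 between the changes (adjusted p = 0.00011). Il12b had 135 and 128 TPM at 4 hr in knockout cells, against 91.7 and 90.6 TPM in control cells, and 3.01 and 2.32 TPM at 1 hr in knockout cells, against 34.9 and 32.4 TPM in control cells (difference 3.77 ± 0.15, adjusted p = 3.3e-06). Its difference therefore sits mainly in the 1 hr levels. Nek6, a mitotic kinase, had 6.49 and 6.38 TPM at 4 hr in knockout cells, against 16.3 and 14.5 TPM in control cells, and 47.1 and 47.0 TPM at 1 hr in knockout cells, against 15.5 and 16.2 TPM in control cells (-2.65 ± 0.13). Its exons overlap Psmb7. Arid1a mRNA was lower in knockout cells, at 25.4 and 26.1 TPM at 4 hr, against 35.2 and 41.9 TPM in control cells, and 7.17 and 13.2 TPM at 1 hr, against 18.3 and 17.3 TPM; which exons are deleted is not given in the sources used here, so reads from the remaining exons count as Arid1a. The number of genes that differed depended on single libraries: of 1873 in both directions (15.9% of genes tested), 971 and 915 were left without control 1 hr replicate 1 or 2, 1105 and 1163 without knockout 4 hr replicate 1 or 2, and 1229 without control 4 hr replicate 2, while 3053 were called without knockout 1 hr replicate 2.

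**Figure D5:**
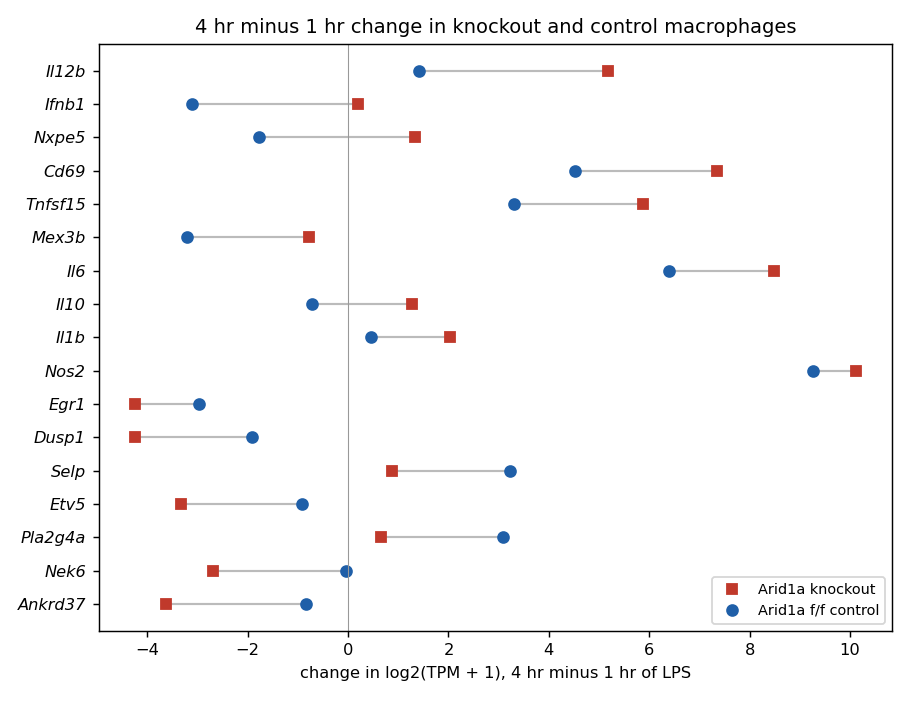
Change in log2(TPM + 1), 4 hr minus 1 hr of LPS, in Arid1a knockout (squares) and Arid1a f/f control (circles) macrophages for 17 genes whose changes differed; each symbol is a difference of mean log2 values, 2 libraries a group. The change of Ifnb1 is -3.12 in control cells and near 0 in knockout cells, and Il12b, Cd69 and Il6 rise more in knockout cells.

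Length, span and exon overlap set the called genes little apart. The median exonic length was 2969 bases for genes called higher and 2714 for genes called lower, against 2642 for all genes tested, and the median gene span was 27092 bases for genes called higher and 23475 for genes called lower, against 21801 for all. Among genes with a log2 change of at least 2 in size the order turned. Their median exonic length was 2834.5 bases for higher and 3055.5 for lower genes, and their median span 22200 and 25032 bases. Exons that overlap another annotated gene were found for 38.3% of the higher and 38.1% of the lower genes, against 39.4% of all.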

How the data were processed

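RNA was measured by sequencing in mouse bone marrow-derived macrophages. Per the file headers, the authors counted exon reads on both strands with HOMER, kept 1 transcript per gene and deposited TPM values; STAR 2.5.3a, HOMER, DESeq2 and the build GRCm38/mm10 are named in the submitters' processing notes, with no role given here. The deposited log2 values are the authors' normalized expression and served only as an alternative chosen after seeing the data. Exonic lengths in the deposited tables gave whole reads back from TPM for 100% of low values, within 0.1 read. The 4 libraries hold 10282399 to 11863069 recovered exonic reads, and floors of 3 reads cover counting error only.

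Of 25124 listed genes, 11798 had at least 1 TPM in at least 2 libraries. limma 3.58.1 in R 4.3.3, with trend and robust moderation, was fitted to log2(TPM + 1) over the 5 groups of 2 libraries, which share the spread (5 residual degrees of freedom), with Benjamini-Hochberg adjustment over all genes. Fold changes on this scale understate the change of low genes. A gene was called when the adjusted p was under 0.05 with the same direction on TPM and on TPM divided by median-ratio factors; adjusted p-values in the text are those on TPM unless stated. The interaction term compared knockout with control cells.

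Named genes were the 15 largest called changes each way at a mean of at least 10 TPM, 18 LPS response genes, up to 4 called members of each list each way at a mean of at least 5 TPM, the 6 largest interactions each way, Arid1a and cell type markers. Members and lists were chosen with earlier results of these data known. Promoter windows are RefSeq's; a share of motifs is given only where at least 80% of a set's genes had a window. In the first lipid A experiment 1 column was not used, because it matched no sample by name and equalled another column in 24537 genes.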

Additional observations from a re-analysis of the deposited data

Results flagged for a closer look

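The 4 hr minus 1 hr change differed between Arid1a knockout and control cells for 17 of the named genes, by the limma interaction term with 2 libraries a group. Values are knockout change minus control change in log2(TPM + 1). Among cytokines the difference was 2.10 for Il6, with 842 and 901 TPM at 4 hr and 1.35 and 1.5 TPM at 1 hr in knockout cells, against 614 and 505 TPM at 4 hr and 5.96 and 5.34 TPM at 1 hr in control cells. It was 3.77 for Il12b, 3.32 for Ifnb1, 1.58 for Il1b, 2.0 for Il10 and 2.57 for Tnfsf15. Il1b had 666 and 577 TPM at 4 hr and 159 and 143 TPM at 1 hr in knockout cells, against 2199 and 2097 TPM at 4 hr and 1582 and 1555 TPM at 1 hr in control cells. Il10 had 16.0 and 16.1 TPM at 4 hr and 5.79 and 6.30 TPM at 1 hr in knockout cells, against 35.2 and 27.1 TPM at 4 hr and 48.4 and 55 TPM at 1 hr in control cells. The levels of both genes were thus lower in knockout cells at both times. Cd69 differed by 2.84, Nxpe5 by 3.09 and Mex3b by 2.42.

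Nos2 differed by 0.865, a call lost with limma voom (adjusted p = 0.214) and with a pseudocount of 0.1 (adjusted p = 0.16); 1 of its control 1 hr libraries lies under the level of 3 reads. Negative differences were -1.28 for Egr1, -2.33 for Dusp1, -2.42 for Pla2g4a, -2.80 for Ankrd37, -2.65 for Nek6, -2.42 for Etv5 and -2.35 for Selp. The Egr1 call was lost without knockout 4 hr replicate 1 (adjusted p = 0.0542) and without control 4 hr replicate 2 (adjusted p = 0.0552). The Dusp1 call was lost when knockout 1 hr replicate 1, or any 1 of the control 1 hr, knockout 4 hr and control 4 hr libraries, was left out (adjusted p of 0.0514 to 0.0725).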

How the results depend on the processing

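The number of genes higher at 4 hr was 2083, against 3870 on rescaled TPM alone, 3868 with limma voom on recovered reads, 3928 on the authors' log2 values and 1047 with a minimum log2 change of 1. The number lower was 3803, against 6697 on TPM alone. With 1 library left out, 1814 to 2265 genes were higher and 3159 to 4066 lower. Differences between knockout and control cells numbered 1873, against 561 with the minimum change and 915 to 3053 with 1 library left out. Of genes raised at least 2 by lipid A at 4 hr only, 94.9% were higher. The cause of these shifts was not tested. Replicate numbers did not pair the libraries (correlations of deviations from -0.0879 to 0.145); with the replicate block 2068 genes were higher, 3787 lower and 1679 differed between genotypes.

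Of 271 called named genes, 243 kept call and direction under every alternative but the minimum change, none reversed, and 28 lost the call with 1 library left out. Signs turned for uncalled genes: on rescaled TPM, with voom and on the authors' values, Tnf was 0.122, 0.116 and 0.126, Tnfaip3 0.384, 0.378 and 0.380, Nek6 0.492, 0.513 and 0.509, Cd14 0.348, 0.341 and 0.345, S100a8 0.117, 0.111 and 0.115, S100a9 0.501, 0.529 and 0.462, and Ngp 0.239, 0.324 and 0.253. Cd68 was 0.00466 on rescaled TPM and 0.00749 on the authors' values. With 1 library left out, Nek6 ranged from -0.117 (without control 4 hr replicate 1) to 0.0379 (without replicate 2), S100a8 likewise from -0.836 to 0.0470 and Ngp from -0.404 to 0.144. S100a9 ranged from -0.244 (without control 1 hr replicate 1) to 0.223 (without replicate 2), with 0.155 without control 4 hr replicate 2. The edgeR and DESeq2 comparison was not run, since the tables hold TPM, and the promoter alternative was void. With 2 libraries a time, depth limits low genes most: 3 reads on 2 kb equal 0.156 to 0.198 TPM.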
